A study of Homo sapiens with 15 samples.

Results

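Cells that had been dissociated and replated on day 2 of cardiac differentiation (passaged) were compared on day 3, 1 day later, with cells that had stayed in their wells and received IWP2 (NP-IWP2, where NP stands for not passaged). The comparison used 2 of the 15 libraries of the series. A gene entered it with at least 30 counts in either library, which 15070 of the 60605 genes in the table reached. The other 45535 genes were under that minimum in both.

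All libraries came from H1, an established human embryonic stem cell line of wild-type genotype, in 1 time course. Cells of every arm had been induced toward mesendoderm by CHIR99021, which switches on the WNT pathway from inside the cell, and shared days 0 to 2. The passaged arm then differentiated without an added inducer, and the third arm (NP-ctrl) stayed in place without an inducer either. By the methods of the study, passaging on day 2 detached the cells with EDTA. The ROCK inhibitor Y27632 came to be part of its differentiation experiments, although the reagents of this library are not given by themselves. A splitting ratio, which diluted the cells, is given in the study's figure legend for its RNA-seq time course. A difference between passaged and NP-IWP2 therefore combines detachment, replating at a lower density with any added reagent, and the absence of IWP2. These cannot be told apart in this pair. With 1 library per group and 1 cell line there was no replicate check, no p-value was computed, and each 95% interval below is an exact interval of the count ratio that covers counting error only.

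WNT ligands are lipid-modified by the acyltransferase PORCN before they leave the cell, and IWP2 inhibits PORCN. WNT signalling through beta-catenin induces the primitive streak, from which mesoderm and endoderm leave through an epithelial-to-mesenchymal transition. The same pathway must then decline for cardiac mesoderm to form, which is why inhibitors of WNT secretion are a standard step of cardiac differentiation. Dissociation takes apart cell junctions and the contacts of integrins with the matrix, which signal through focal adhesions, actin and YAP.

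Both libraries were of similar depth, with 13495766 counts in NP-IWP2 and 13682085 in passaged. Levels are FPKM, the deposited values per exonic length and library total, and a fold is the ratio of the FPKM values, with counts under 3 raised to 3. A gene was called higher or lower when that ratio reached 2-fold. By this rule 968 genes were higher in passaged (6.42% of the 15070) and 1333 were lower (8.85%), and the median log2 ratio of passaged to NP-IWP2 over all 15070 genes was -0.01. The shares of 6.42% and 8.85% are the background for the counts called in each gene list below. At this minimum and threshold an interval excludes equality by construction, as it did for all 2301 called genes. The intervals of 1206 of them lay wholly beyond 2-fold. When the values were scaled as TPM, which moved the median by 0.16, 55.0% of the called genes were higher in passaged, against 42.1% with library totals. The calls of COL6A1, SMAD3, TBX3, CDKN1A, MYL3 and WNT8A described below ended under TPM. Protein-coding genes made up 815 of the higher and 896 of the lower genes, out of 12990 that reached the minimum. Long non-coding RNAs made up 107 and 321, out of 1370.

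**Figure D1:**
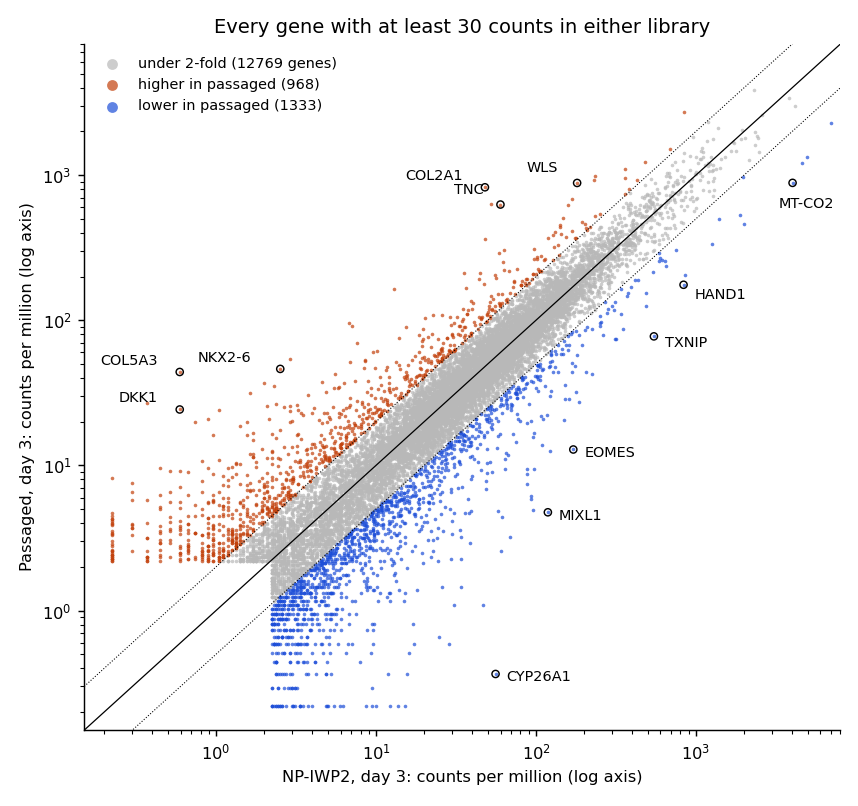
CPM (counts scaled to the library total) in NP-IWP2 (horizontal, log axis) and passaged (vertical, log axis) for the 15070 genes with at least 30 counts in either library, each point 1 gene, with counts under 3 raised to 3. The solid line marks equality and the dotted lines 2-fold, and the 968 orange genes above and the 1333 blue genes below them are those called higher and lower in passaged. CYP26A1, MIXL1 and EOMES lie far below the lines and COL5A3, DKK1 and COL2A1 far above.

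The mitochondrial genome supplied 1.53% of the counts in passaged (95% Wilson interval 1.52% to 1.53%) and 4.66% in NP-IWP2 (4.65% to 4.67%). The other 14 libraries of the series lay between 3.71% and 10.3%, so that the passaged library of day 3 stood below all of them. All results below rest on this library, and the part of its low mitochondrial share in them was not tested. With the mitochondrial genes taken out of the totals, 894 genes were higher and 1431 lower.

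The differences lay mostly on the side of the passaged library. Over the 968 higher genes the median log2 ratio to NP-ctrl of the same day was 1.43 for passaged and -0.19 for NP-IWP2. For the 1333 lower genes these medians were -1.17 and 0.41. Against the shared library of day 2, the higher genes had medians of 1.66 in passaged and -0.00 in NP-IWP2, and the lower genes had -0.92 and 0.59. These comparisons share libraries with the pair, and the genes were chosen on it, so the values are set side by side as a description.

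Genes of the WNT pathway were described first, since IWP2 acts there. Of 16 genes known as direct targets of beta-catenin, 15 reached the minimum, 5 were higher in passaged and 2 lower, with a median log2 ratio of 0.54. The median of this list was 0.09 for passaged to NP-ctrl and -0.41 for NP-IWP2 to NP-ctrl. Its summed FPKM on day 3 was 242.7 in passaged, 160.6 in NP-IWP2 and 318.1 in NP-ctrl. The target AXIN2, a scaffold of the complex that destroys beta-catenin, stood at 7.66 FPKM on day 2 and, on day 3, 18.8 in passaged, 6.55 in NP-IWP2 and 8.59 in NP-ctrl, and was 2.87-fold (2.58 to 3.19) higher in passaged than in NP-IWP2. SP5, a transcription factor and target gene of the streak, measured 47.7 FPKM on day 2 and, on day 3, 60.8 in passaged, 26.9 in NP-IWP2 and 45.2 in NP-ctrl. Its passaged level was 2.26-fold (2.08 to 2.47) above that of NP-IWP2, and NP-ctrl lay between the 2 libraries for this gene. DKK1, a secreted antagonist that blocks the LRP5 and LRP6 co-receptors, had 0.04 FPKM on day 2 and, on day 3, 10.9 in passaged, 0.27 in NP-IWP2 and 2.91 in NP-ctrl. The difference of 40.9-fold (20.5 to 95.6) was among the highest of all protein-coding genes, although it rests on 8 counts in NP-IWP2 and 332 in passaged. NOTUM, a secreted enzyme that removes the lipid of WNT ligands, was 2.71-fold (1.99 to 3.75) higher, and TNFRSF19 was 6.501-fold (5.01 to 8.56) higher. LGR5, a receptor of R-spondins, went the other way, with 5.72 FPKM in passaged and 23.3 in NP-IWP2 and 4.07-fold (3.65 to 4.54) lower, as did NKD2, an inhibitor of Dishevelled, at 3.04-fold (2.15 to 4.38) lower in passaged. LEF1, TCF7 and ZNRF3 differed by under 2-fold, with 1.13-fold (1.07 to 1.2) for LEF1.

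Promoter sequences of SP5 and DKK1 are shown because these target genes were higher in passaged and hold the letters of the TCF and LEF site, CTTTGA on either strand, which are in capitals. The RefSeq windows (GRCh38.p14) run from 250 bases before the annotated start to 50 after it, in the direction of transcription.
SP5, chr2:170715087-170715386, plus strand: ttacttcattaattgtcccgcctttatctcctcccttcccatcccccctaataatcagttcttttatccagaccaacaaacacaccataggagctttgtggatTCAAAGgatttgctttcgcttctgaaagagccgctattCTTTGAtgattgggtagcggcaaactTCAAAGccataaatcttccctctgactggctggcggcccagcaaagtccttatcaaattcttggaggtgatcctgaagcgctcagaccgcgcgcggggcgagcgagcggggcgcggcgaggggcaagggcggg
DKK1, chr10:52314031-52314330, plus strand: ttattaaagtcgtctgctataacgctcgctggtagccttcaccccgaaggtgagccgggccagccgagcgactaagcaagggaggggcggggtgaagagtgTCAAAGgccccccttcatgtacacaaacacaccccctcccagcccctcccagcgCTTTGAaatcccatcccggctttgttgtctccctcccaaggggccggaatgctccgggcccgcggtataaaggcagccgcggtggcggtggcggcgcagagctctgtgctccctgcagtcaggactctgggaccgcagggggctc
The SP5 window held 3 matches, which began 147, 109 and 83 bases before the start, and that of DKK1 held 2, at 149 and 95 bases. Among the 10 target genes with a window in the table, 3 held the letters (30%), the other being SP8 at 10.1 FPKM in passaged and 6.93 in NP-IWP2. Of all 27305 promoter windows 13.1% held them, so a match is common, and these letters overlap with those of the TTTGAA motif counted below.

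Of 18 genes of WNT ligands, 11 reached the minimum, 2 were higher in passaged and 3 lower, with a median log2 ratio of -0.09. This median depended on the count minimum, with -0.67 for ligands with at least 100 counts and -0.55 for a mean of at least 30 over the pair. WNT4 was 9.23-fold (6.28 to 14.1) lower in passaged (0.46 FPKM in passaged and 4.21 in NP-IWP2), WNT11 2.96-fold (2.24 to 3.93) lower and WNT8A 2.16-fold (1.86 to 2.52) lower. WNT3A, a ligand of the canonical pathway, was near the minimum, at 18 counts in NP-IWP2 and 39 in passaged, and WNT5A, the most abundant ligand by FPKM, stood at 103 FPKM on day 2 and, on day 3, 21.8 in passaged, 34.6 in NP-IWP2 and 31.6 in NP-ctrl. The difference of WNT5A, 1.59-fold (1.504 to 1.68), was not called.

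Of 25 genes of WNT secretion, reception and extracellular antagonism, 21 reached the minimum, 4 were higher in passaged and 4 lower, with a median log2 ratio of -0.10. WLS, the carrier that brings WNT ligands to the cell surface, had 37.3 FPKM on day 2 and, on day 3, 198 in passaged, 40.5 in NP-IWP2 and 81.9 in NP-ctrl. It was 4.88-fold (4.67 to 5.102) higher in passaged, whereas PORCN itself, the target of the drug, stood at 2.48 FPKM on day 2 and, on day 3, 2.24 in passaged, 2.86 in NP-IWP2 and 2.76 in NP-ctrl and differed by 1.28-fold (1.04 to 1.56). SFRP5, a decoy receptor, was 4.198-fold (3.73 to 4.73) higher, and the receptors FZD4 and FZD10 were 2.46-fold (2.25 to 2.696) and 6.29-fold (2.96 to 15.3) higher. Lower in passaged were FZD8 (2.89-fold (2.55 to 3.28)), FZD5 (2.58-fold (2.18 to 3.07)) and RSPO3 (4.73-fold (3.103 to 7.46)). CER1, a secreted antagonist of NODAL, BMP and WNT, had 184 counts in NP-IWP2 and 3 in passaged, a ratio of 62.2-fold with an interval of 20.95 to 304. The medians of the ligand and of the secretion list turned positive with TPM scaling.

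Genes of the primitive streak, the transient population that the cells had passed through by day 2, included MIXL1 and EOMES, both lower in passaged. Of 13 streak genes, 12 reached the minimum, 3 were higher in passaged and 4 lower, with a median log2 ratio of -0.64. MIXL1, a homeobox factor of the streak, had 199 FPKM on day 2 and, on day 3, 2.33 in passaged, 58.3 in NP-IWP2 and 22.3 in NP-ctrl, and was 24.97-fold (19.5 to 32.5) lower in passaged than in NP-IWP2. EOMES, a T-box factor that opens mesoderm and endoderm programmes, followed the same order with 128 FPKM on day 2 and, on day 3, 3.52 in passaged, 46.8 in NP-IWP2 and 15.3 in NP-ctrl. Its difference was 13.3-fold (11.4 to 15.6). For both genes NP-IWP2 was above NP-ctrl and passaged was below it. TBXT (brachyury) was already low in all 3 libraries of day 3, at 95.4 FPKM on day 2 and, on day 3, 1.91 in passaged, 2.9 in NP-IWP2 and 3.03 in NP-ctrl, and differed by 1.52-fold (1.11 to 2.098). The streak genes that were higher in passaged were EVX1 (3.35-fold (2.45 to 4.64)), SP5 and FGF8, a ligand that also marks the second heart field, at 2.32-fold (2.06 to 2.62).

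**Figure D2:**
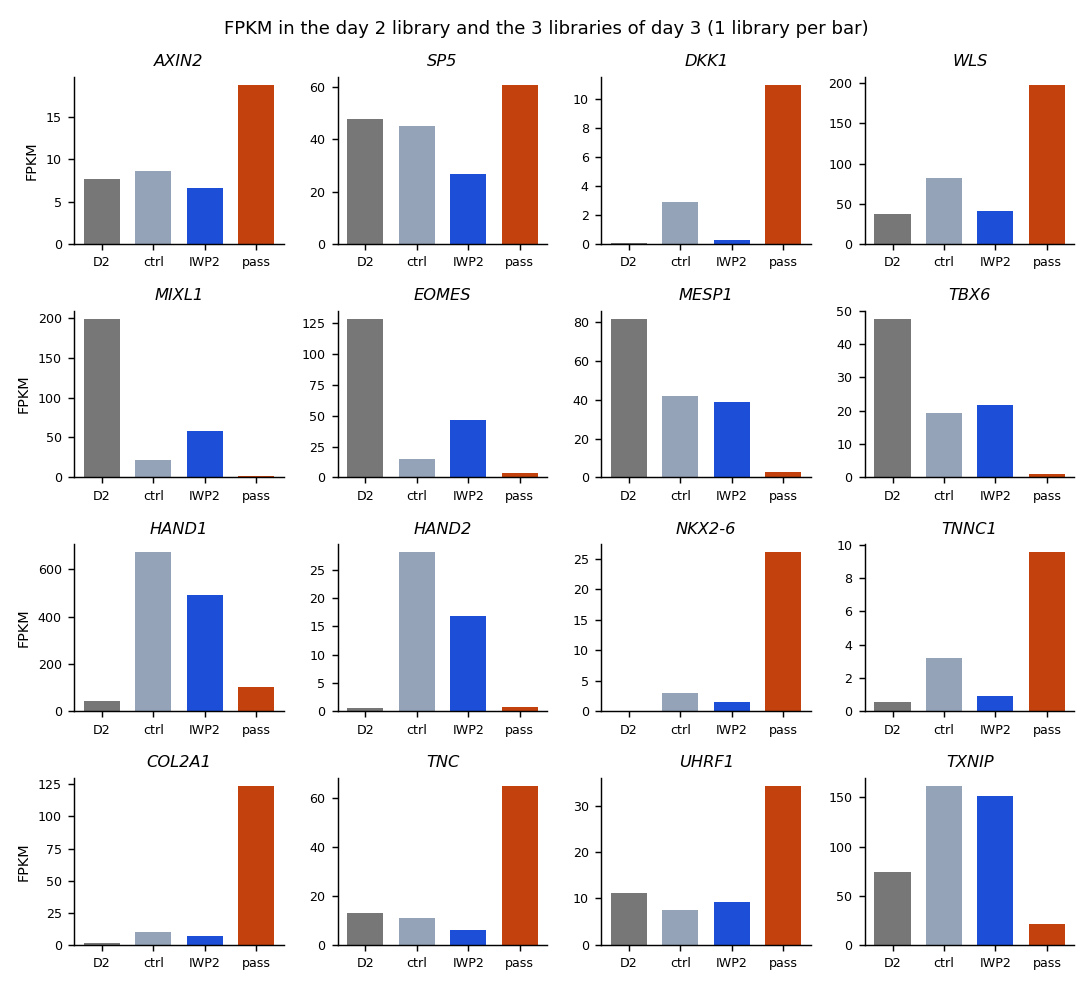
FPKM of 16 genes in the day 2 library (D2, grey) and the day 3 libraries NP-ctrl (light), NP-IWP2 (blue) and passaged (orange), each bar 1 library and each panel with its own axis from 0. Passaged is the highest bar for AXIN2, SP5, DKK1, WLS, NKX2-6, TNNC1, COL2A1, TNC and UHRF1, and the lowest for MIXL1, EOMES, MESP1, TBX6 and TXNIP.

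The lowest median among the mesodermal lists was that of presomitic and paraxial mesoderm, the trunk mesoderm that forms somites. Of its 14 genes, 12 reached the minimum, 2 were higher in passaged and 8 lower, with a median log2 ratio of -1.32. CYP26A1 (chr10:93073475-93077885, plus strand), which breaks down retinoic acid, had 32.4 FPKM on day 2 and, on day 3, 0.12 in passaged, 18.9 in NP-IWP2 and 4.23 in NP-ctrl. With 754 counts in NP-IWP2 and 5 in passaged, this was the largest ratio of all 15070 genes with counts under 3 raised to 3, 153-fold (65.2 to 472). TBX6, a T-box factor of presomitic mesoderm, had 47.6 FPKM on day 2 and, on day 3, 1.01 in passaged, 21.8 in NP-IWP2 and 19.4 in NP-ctrl, 21.5-fold (15.9 to 29.8) lower in passaged. MESP2 was 19.7-fold (15.4 to 25.5) lower and shares near-identical sequence with MESP1, so reads of these genes may be split between them. RIPPLY2, which ends MESP2 expression in the embryo, was 5.27-fold (2.65 to 11.6) lower. The NOTCH ligands DLL3 and DLL1 stood at 28.1 FPKM in passaged and 121 in NP-IWP2 and 6.53 FPKM in passaged and 17.2 in NP-IWP2. FOXC2, a forkhead factor of somites and heart, was on the other side at 77.4 FPKM in passaged and 26.3 in NP-IWP2, 2.95-fold (2.74 to 3.16) higher, and LFNG, a glycosyltransferase that modifies NOTCH, was 3.24-fold (2.68 to 3.95) higher. Neither direction covers the whole list, and MSGN1 had no count in either library.

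Several main factors of cardiac mesoderm were lower in passaged than in NP-IWP2. Of 27 genes of cardiac mesoderm and heart progenitors, 25 reached the minimum, 2 were higher in passaged and 9 lower, with a median log2 ratio of -0.71. HAND1, a basic helix-loop-helix factor of the first heart field, had 44.9 FPKM on day 2 and, on day 3, 103 in passaged, 492 in NP-IWP2 and 671 in NP-ctrl. It was 4.77-fold (4.56 to 4.98) lower in passaged than in NP-IWP2, yet above day 2. HAND2, its relative, had 0.47 FPKM on day 2 and, on day 3, 0.71 in passaged, 16.8 in NP-IWP2 and 28.1 in NP-ctrl, so that passaged was close to day 2, with a difference of 23.7-fold (16.9 to 34.3). MESP1, an early marker of cardiac mesoderm, measured 81.8 FPKM on day 2 and, on day 3, 2.59 in passaged, 39.2 in NP-IWP2 and 41.8 in NP-ctrl. Its difference of 15.1-fold (12.1 to 19.1) was of the same direction as that of MESP2. Lower too were TBX20 (5.25-fold (3.87 to 7.26)), GATA4 (2.36-fold (2.23 to 2.502)), KDR, the VEGF receptor of early cardiovascular progenitors (2.29-fold (2.195 to 2.38)), and TBX3 (2.04-fold (1.89 to 2.19)).

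The genes of this list called higher in passaged were NKX2-6 and FGF10. NKX2-6, a homeobox factor of the pharynx and early heart, was listed at 0 on day 2 and stood at 2.95 FPKM in NP-ctrl, 1.42 in NP-IWP2 but 26.02 in passaged. This was 18.3-fold (12.98 to 26.7) higher in passaged. FGF10, a ligand of the second heart field, was 3.09-fold (2.77 to 3.46) higher, with 14.9 FPKM in passaged and 4.82 in NP-IWP2, and TBX1 was at 39.7 FPKM in passaged and 24.96 in NP-IWP2, under the 2-fold limit. ISL1, a LIM homeobox factor of the second heart field, stood at 1.46 FPKM on day 2 and, on day 3, 17.1 in passaged, 32.1 in NP-IWP2 and 42.8 in NP-ctrl and differed by 1.88-fold (1.71 to 2.07), lower in passaged. PDGFRA, a receptor of cardiac mesoderm, was level in the pair at 68.1 FPKM in passaged and 69.9 in NP-IWP2, with an interval of 0.997 to 1.06 around a fold of 1.03. NKX2-5 was near the minimum with 28 counts in NP-IWP2 and 44 in passaged, and GATA6 at 47.6 FPKM in passaged and 74.3 in NP-IWP2 was not called.

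Contractile genes were mostly near the minimum on day 3. Of 26 genes of the sarcomere and of contraction, 15 reached the minimum, 6 were higher in passaged and 4 lower, with a median log2 ratio of 0.65. TNNC1, the calcium-binding troponin of heart, had 0.56 FPKM on day 2 and, on day 3, 9.54 in passaged, 0.91 in NP-IWP2 and 3.18 in NP-ctrl, and was 10.5-fold (6.06 to 19.7) higher in passaged. DES, which codes for the intermediate filament desmin, was 12.4-fold (8.43 to 18.9) higher (10.3 FPKM in passaged and 0.83 in NP-IWP2), and TNNT2, cardiac troponin T, 5.43-fold (2.25 to 15.8) higher on only 6 counts in NP-IWP2 and 33 in passaged. MYL7, the atrial myosin light chain, and TPM1, a tropomyosin, were 2.39-fold (1.895 to 3.03) and 2.26-fold (2.16 to 2.37) higher, and NEBL was at 9.27 FPKM in passaged and 5.24 in NP-IWP2. Lower in passaged were ACTC1, cardiac actin (2.92-fold (2.17 to 3.99)), TNNI3 (2.64-fold (1.42 to 5.15)) and MYL3 (2.04-fold (1.499 to 2.81)). NPPB, a natriuretic peptide, had 68 counts in NP-IWP2 and 2 in passaged, a ratio of 34.5-fold with an interval of 9.18 to 290.4. MYH6 and MYH7, which are near-identical neighbours, had at most 7 counts, and MYL2 had none.

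The NODAL pathway, the TGF-beta branch that patterns the streak, was lower in passaged for its ligand, co-receptor and several other members. Of 17 genes, 13 reached the minimum, 1 was higher in passaged and 7 lower, with a median log2 ratio of -1.01. The ligand NODAL had 6.96 FPKM on day 2 and, on day 3, 0.21 in passaged, 1.71 in NP-IWP2 and 1.15 in NP-ctrl, 8.11-fold (3.47 to 23.2) lower in passaged than in NP-IWP2. Its co-receptor TDGF1 had 87.3 FPKM on day 2 and, on day 3, 8.84 in passaged, 43.3 in NP-IWP2 and 18.3 in NP-ctrl, 4.904-fold (4.33 to 5.57) lower. The antagonist and target LEFTY2 stood at 0.26 FPKM in passaged and 4.18 in NP-IWP2, 16.4-fold (8.05 to 38.7) lower, and GDF3 was 8.45-fold (3.62 to 24.1) lower. Among the intracellular members FOXH1 was 2.64-fold (2.48 to 2.82) lower, SMAD3 2.02-fold (1.88 to 2.17) lower, and SMAD2 level at 2.9 FPKM in passaged and 3.08 in NP-IWP2. FST, which binds and blocks activins, was the only gene of the list called higher, at 22.2 FPKM in passaged and 3.69 in NP-IWP2 and 6.01-fold (5.01 to 7.25).

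BMP, FGF and retinoic acid genes moved in both directions. Of 22 BMP genes, 20 reached the minimum, 4 were higher in passaged and 4 lower, with a median log2 ratio of -0.08. The ligand BMP2 was 3.15-fold (2.83 to 3.52) lower in passaged and the inhibitory SMAD6 2.298-fold (2.19 to 2.41) lower, whereas the secreted antagonists GREM1 and NOG were 23.04-fold (13.5 to 42.6) and 4.63-fold (2.52 to 9.18) higher. GREM1 was low in both libraries, at 1.62 FPKM in passaged and 0.07 in NP-IWP2. ID4, a target of BMP signalling, was 3.02-fold (2.74 to 3.34) higher. The remaining called genes of the BMP list were BMPR1B, higher at a log2 ratio of 2.81, and BMPR2 and SMAD9, lower at -1.27 and -1.18. Of 25 FGF genes, 24 reached the minimum, 6 were higher in passaged and 4 lower, with a median log2 ratio of 0.06. FGF17 and FGF4, ligands of the streak, were 8.11-fold (6.27 to 10.6) and 5.58-fold (2.596 to 13.7) lower, while the feedback inhibitors IL17RD and SPRY2 and the target ETV5 were 3.095-fold (2.93 to 3.27), 2.15-fold (2.004 to 2.32) and 2.41-fold (2.08 to 2.798) higher. Of 23 genes of retinoic acid metabolism, its receptors and HOX genes, 14 reached the minimum, 3 were higher in passaged and 2 lower, with a median log2 ratio of 0.24. ALDH1A2, which makes retinoic acid in the embryo, was 6.06-fold (4.55 to 8.22) higher in passaged at 3.04 FPKM in passaged and 0.5 in NP-IWP2, opposite in direction to CYP26A1. RARB, a receptor and target gene, had 0.08 FPKM on day 2 and, on day 3, 8.78 in passaged, 4.31 in NP-IWP2 and 4.03 in NP-ctrl, 2.04-fold (1.73 to 2.41) higher. Of 28 NOTCH and ephrin genes, 26 reached the minimum, 5 were higher in passaged and 3 lower, with a median log2 ratio of 0.06. JAG1 and EFNB2 were 3.44-fold (3.27 to 3.61) and 4.41-fold (4.03 to 4.83) higher and HEY2 was 3-fold (2.59 to 3.48) lower.

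**Figure D3:**
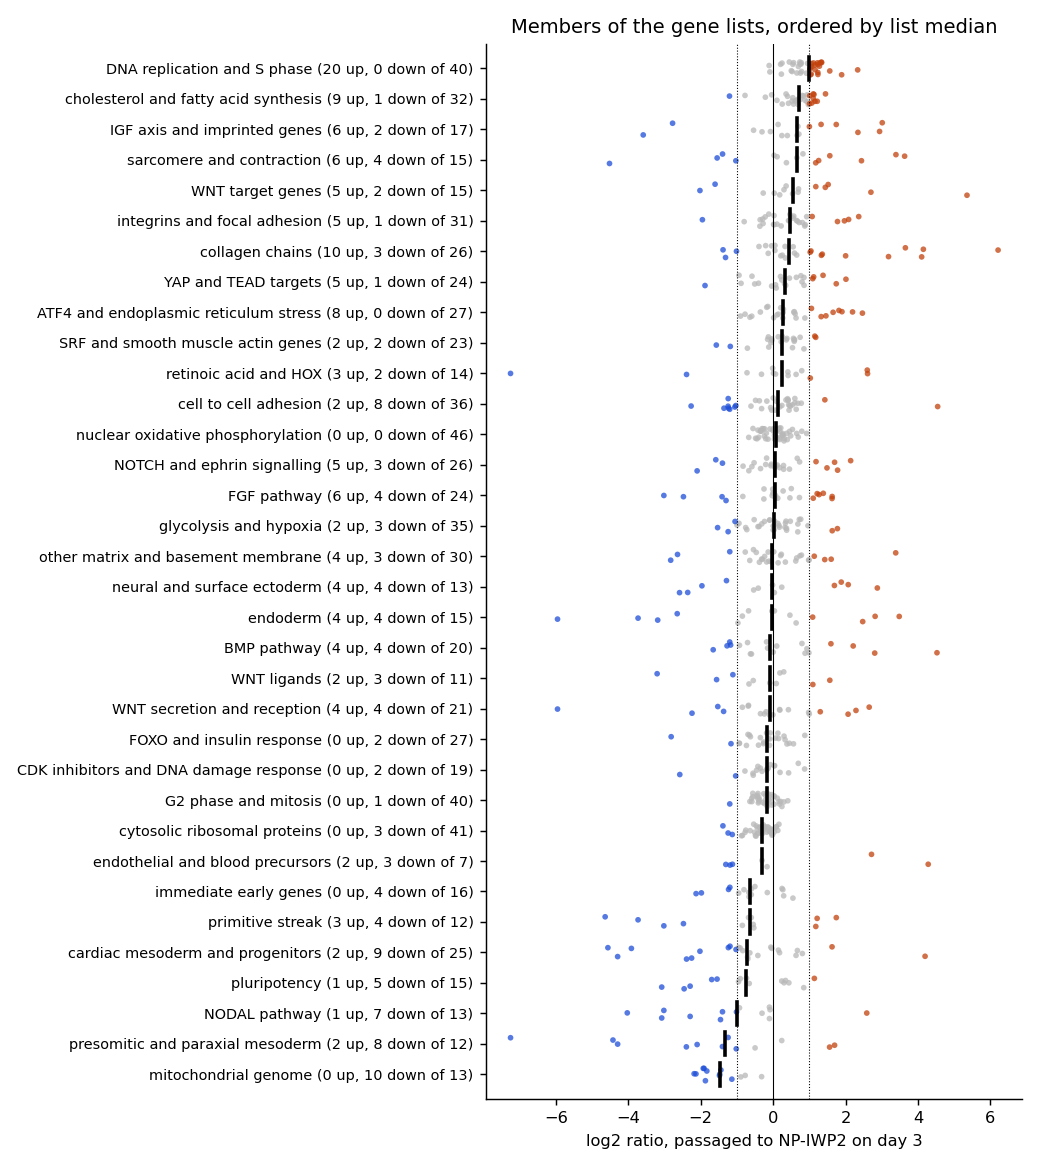
The log2 ratio of passaged to NP-IWP2 on day 3 for the members of 34 gene lists that reached 30 counts, each point 1 gene (orange 2-fold higher, blue 2-fold lower, grey between), with the list median as a black bar and lists ordered by it. S phase genes form the highest list, with a median of 0.98, and the mitochondrial genome the lowest, with -1.48.

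Matrix genes differed gene by gene. Of 26 collagen chains, 26 reached the minimum, 10 were higher in passaged and 3 lower, with a median log2 ratio of 0.44. COL2A1, a fibrillar collagen of cartilage and of several embryonic tissues, had 1.09 FPKM on day 2 and, on day 3, 124 in passaged, 7.2 in NP-IWP2 and 10.4 in NP-ctrl, and was 17.2-fold (15.9 to 18.6) higher in passaged. COL5A3 (chr19:9959561-10010504, minus strand) had 0.11 FPKM on day 2 and, on day 3, 6.49 in passaged, 0.09 in NP-IWP2 and 0.12 in NP-ctrl. Its ratio of 74.2-fold (37.4 to 173) was the highest of all 15070 genes with counts under 3 raised to 3, on 8 counts in NP-IWP2 and 602 in passaged. COL1A1 stood at 3.09 FPKM on day 2 and, on day 3, 102 in passaged, 25.5 in NP-IWP2 and 41.1 in NP-ctrl, 4.01-fold (3.85 to 4.17) higher, whereas COL1A2, whose chain assembles with it into type I collagen, was level at 50.9 FPKM in passaged and 56.02 in NP-IWP2. COL6A1 and COL6A2, chains of type VI collagen, were 2.02-fold (1.98 to 2.06) and 2.49-fold (2.402 to 2.58) lower. COL6A3, the chain that completes them, was 9.11-fold (5.13 to 17.6) higher, though at 0.41 FPKM in passaged and 0.04 in NP-IWP2. The basement membrane chains COL4A1 and COL4A2 were not called, with 1.504-fold (1.43 to 1.58) and 1.03-fold (0.986 to 1.08).

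Of 37 other matrix genes, 30 reached the minimum, with a median log2 ratio of -0.02. In passaged 4 were higher and 3 lower, beside 6.42% and 8.85% of all genes. TNC, an anti-adhesive glycoprotein of remodelled matrix, had 13.2 FPKM on day 2 and, on day 3, 65.0 in passaged, 6.22 in NP-IWP2 and 11.1 in NP-ctrl, 10.5-fold (9.72 to 11.3) higher. AGRN, a heparan sulphate proteoglycan, was 3.04-fold (2.94 to 3.14) higher, and fibronectin (FN1) at 135 FPKM in passaged and 68.7 in NP-IWP2 came to 1.97-fold (1.94 to 2.01), just under the limit. LOX and ELN, the crosslinking enzyme and its substrate elastin, were 7.11-fold (5.38 to 9.56) and 6.25-fold (5.08 to 7.74) lower, while LOXL1 and LOXL2 of the same enzyme family were 2.69-fold (2.39 to 3.02) and 2.197-fold (2.06 to 2.35) higher. Of 34 integrin and focal adhesion genes, 31 reached the minimum, 5 were higher in passaged and 1 lower, with a median log2 ratio of 0.46. ITGA5, the fibronectin receptor chain, was the only gene of this list called lower, 3.88-fold (3.68 to 4.09), with 17.02 FPKM in passaged and 65.99 in NP-IWP2. The laminin-binding chains ITGA6 and ITGA3 were 5.15-fold (4.52 to 5.88) and 3.43-fold (2.99 to 3.95) higher, ITGA6 with 4.81 FPKM on day 2 and, on day 3, 15.6 in passaged, 3.03 in NP-IWP2 and 3.29 in NP-ctrl. ITGA1 and ITGA8 were 4.24-fold (3.03 to 6.06) and 3.91-fold (3.28 to 4.696) higher.

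Of 37 genes of cell to cell adhesion and of the epithelial-to-mesenchymal transition, 36 reached the minimum, 2 were higher in passaged and 8 lower, with a median log2 ratio of 0.14. SNAI1, a repressor that drives that transition, had 99.7 FPKM on day 2 and, on day 3, 4.76 in passaged, 22.9 in NP-IWP2 and 19.9 in NP-ctrl, 4.81-fold (3.92 to 5.96) lower in passaged. NCAM1 and PCDH8 were 2.35-fold (2.197 to 2.52) and 2.37-fold (2.13 to 2.64) lower, the tight junction gene CLDN3 2.56-fold (1.84 to 3.62) lower, and PKP2, a desmosomal protein, 2.69-fold (2.53 to 2.87) higher. CDH6, a cadherin, was 23.3-fold (13.2 to 45.7) higher on 12 counts in NP-IWP2 and 284 in passaged. Of 26 YAP and TEAD targets, 24 reached the minimum, 5 were higher in passaged and 1 lower, with a median log2 ratio of 0.33. CCN2 and AMOTL2, commonly used readouts of YAP, were 2.17-fold (1.88 to 2.51) and 2.6-fold (2.39 to 2.83) higher and ANKRD1, another such readout, was at 7.06 FPKM in passaged and 10.6 in NP-IWP2, so these readouts did not share a direction. GADD45B was 3.69-fold (2.996 to 4.57) lower. The letters GGAATG of the TEAD site were in 36.8% of the 19 target promoters in the table and in 14% of all promoters. Other lists ran from 0% of 14 endoderm promoters to 35.3% of 17 sarcomere promoters, so the share was not particular to YAP and TEAD targets.

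Of 25 SRF targets and smooth muscle actin genes, 23 reached the minimum, 2 were higher in passaged and 2 lower, with a median log2 ratio of 0.25. MYL9 was 2.22-fold (2.03 to 2.44) higher and CNN1 2.97-fold (2.36 to 3.77) lower. Of 22 immediate early genes, which respond within minutes to serum or stress, 16 reached the minimum, 0 were higher in passaged and 4 lower, with a median log2 ratio of -0.64. JUN and ZFP36 were 3.95-fold (3.13 to 5.04) and 4.38-fold (3.29 to 5.897) lower in passaged, and EGR1 stood at 2.03 FPKM in passaged and 2.27 in NP-IWP2. JUN had 4.07 FPKM on day 2 and, on day 3, 1.82 in passaged, 7.18 in NP-IWP2 and 6.28 in NP-ctrl, so that passaged was the lowest of the 4 libraries.

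Genes of DNA replication had log2 ratios above 0 in 38 of 40 cases, while 30 of 40 mitotic genes were below 0. Over all 15070 genes, 7441 were above 0 and 7629 below. All 40 genes of DNA replication and S phase reached the minimum, 20 were higher in passaged and 0 lower, with a median log2 ratio of 0.98. UHRF1, which carries DNA methylation through replication, had 11.2 FPKM on day 2 and, on day 3, 34.3 in passaged, 9.23 in NP-IWP2 and 7.52 in NP-ctrl, 3.71-fold (3.401 to 4.06) higher. E2F2, a transcription factor of S phase entry, was 5.04-fold (3.64 to 7.14) higher with 3.01 FPKM in passaged and 0.6 in NP-IWP2, TK1 2.96-fold (2.67 to 3.28) higher, and CDC6, which loads the replicative helicase, 2.52-fold (2.27 to 2.803) higher. The 2 genes below 0 were CDT1 and ORC6, at 1.08-fold (1.01 to 1.16) and 1.07-fold (1 to 1.13) lower. Of 40 genes of G2 phase and mitosis, 40 reached the minimum, 0 were higher in passaged and 1 lower, with a median log2 ratio of -0.17. With TPM scaling this median was -0.01. CKS2, a subunit of the cyclin-dependent kinases, was the gene called lower, 2.296-fold (2.03 to 2.61). CCNB2 and AURKA stood at 33.6 FPKM in passaged and 52.5 in NP-IWP2 and 22.6 FPKM in passaged and 33.99 in NP-IWP2. The S phase median was also 0.94 for passaged to NP-ctrl and 0.03 for NP-IWP2 to NP-ctrl, and summed FPKM over the list was 1048 on day 2, 1466 in passaged, 784 in NP-IWP2 and 801 in NP-ctrl. For the mitotic list these sums were 1552, 1282, 1498 and 1696.

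Promoters of E2F2, UHRF1 and MCM6 are shown because they hold letters of the E2F site, TTTGGCGC or TTTCCCGC on either strand, in capitals, and their genes were at least 2-fold higher. This motif was chosen after the S phase values had been seen. MCM6 lay close to the 2-fold limit, at a log2 ratio of 1.03, and was at 0.98 with the mitochondrial genes out of the totals.
E2F2, chr1:23531184-23531483, minus strand: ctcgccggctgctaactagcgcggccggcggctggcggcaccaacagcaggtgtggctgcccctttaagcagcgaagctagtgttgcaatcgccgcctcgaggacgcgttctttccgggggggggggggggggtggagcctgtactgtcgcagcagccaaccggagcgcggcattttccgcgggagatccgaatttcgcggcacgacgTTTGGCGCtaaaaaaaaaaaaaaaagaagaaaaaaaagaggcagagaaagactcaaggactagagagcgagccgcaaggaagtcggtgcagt
UHRF1, chr19:4909251-4909550, plus strand: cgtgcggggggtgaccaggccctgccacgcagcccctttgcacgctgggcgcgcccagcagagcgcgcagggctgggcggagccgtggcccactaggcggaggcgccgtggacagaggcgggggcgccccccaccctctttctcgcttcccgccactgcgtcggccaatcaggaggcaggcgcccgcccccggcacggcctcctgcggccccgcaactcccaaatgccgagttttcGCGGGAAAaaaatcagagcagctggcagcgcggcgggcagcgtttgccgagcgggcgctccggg
MCM6, chr2:135876394-135876693, minus strand: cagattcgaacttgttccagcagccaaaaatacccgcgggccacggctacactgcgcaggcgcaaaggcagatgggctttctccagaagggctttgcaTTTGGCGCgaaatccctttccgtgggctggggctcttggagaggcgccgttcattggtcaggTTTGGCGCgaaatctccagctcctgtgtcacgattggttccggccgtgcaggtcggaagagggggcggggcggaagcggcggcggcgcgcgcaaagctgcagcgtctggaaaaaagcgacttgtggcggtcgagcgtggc
The matches began 42 bases before the start in E2F2, 14 in UHRF1, and 152 and 90 in MCM6. Either form was in 18 of the 34 S phase promoters in the table (52.9%), in 2 of 33 G2 and mitosis promoters and in 2.31% of all 27305. S phase genes with a match had a median log2 ratio of 1.02, with 10 of 18 called higher, and the 16 without had 0.85, with 7 called, so the median of the genes without these letters was above 0 as well. The letters TTTGAA of the cell cycle homology region were in 20 of the 33 G2 and mitosis promoters (60.6%) against 15.4% of all, and CCAAT was in 78.8% and 35.7%.

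Of 24 CDK inhibitor and DNA damage response genes, 19 reached the minimum, with a median log2 ratio of -0.17. In passaged 0 were higher and 2 lower, beside 6.42% and 8.85% of all genes. CDKN1A, the inhibitor p21, had 16.8 FPKM on day 2 and, on day 3, 2.2 in passaged, 4.5 in NP-IWP2 and 4.42 in NP-ctrl, 2.05-fold (1.58 to 2.67) lower in passaged, and the stress-induced ligand GDF15 was 5.98-fold (3.04 to 13.1) lower on 59 counts in NP-IWP2 and 10 in passaged. Neither library thus stood above day 2 for CDKN1A.

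Among the lists of lipid synthesis, of glycolysis and hypoxia and of the insulin response, lipid synthesis had the median furthest from 0. Of 32 genes of cholesterol and fatty acid synthesis, 32 reached the minimum, 9 were higher in passaged and 1 lower, with a median log2 ratio of 0.72. HMGCS1, an early enzyme of the mevalonate pathway, had 60.8 FPKM on day 2 and, on day 3, 39.4 in passaged, 16.9 in NP-IWP2 and 19.3 in NP-ctrl, 2.33-fold (2.19 to 2.47) higher. LSS, which forms lanosterol, and SREBF1, a regulator of lipid synthesis, were 2.73-fold (2.56 to 2.91) and 2.19-fold (2.05 to 2.33) higher. Passaged was thus above the other day 3 libraries and below day 2 for HMGCS1, and the median of the list was 0.65 for passaged to NP-ctrl and -0.25 for passaged to day 2. Of 37 genes of glycolysis and hypoxia, 35 reached the minimum, 2 were higher in passaged and 3 lower, with a median log2 ratio of 0.03. SLC2A1, a glucose transporter, was 3.42-fold (3.09 to 3.8) higher at 17.98 FPKM in passaged and 5.25 in NP-IWP2 and VEGFA 2.899-fold (2.64 to 3.19) lower. TXNIP, which limits glucose uptake and is a target of FOXO and glucose sensing, had 74.4 FPKM on day 2 and, on day 3, 21.5 in passaged, 151 in NP-IWP2 and 161 in NP-ctrl, 7.05-fold (6.61 to 7.53) lower. Of 29 FOXO and insulin response genes, 27 reached the minimum, with a median log2 ratio of -0.16. In passaged 0 were higher and 2 lower, beside 6.42% and 8.85% of all genes. The other gene called lower was BCL6 (2.24-fold (1.77 to 2.85)).

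Of 30 genes of the ATF4 and endoplasmic reticulum stress responses, 27 reached the minimum, 8 were higher in passaged and 0 lower, with a median log2 ratio of 0.28. SLC7A5 and SLC3A2, which form an amino acid transporter, were 3.74-fold (3.45 to 4.06) and 3.15-fold (2.96 to 3.35) higher, and SLC7A11 and STC2 were 4.57-fold (3.12 to 6.88) and 5.52-fold (3.73 to 8.44) higher. DDIT3 (CHOP) and DDIT4 stood at 1.62 FPKM in passaged and 2.78 in NP-IWP2 and 24.8 FPKM in passaged and 46.4 in NP-IWP2 and were not called. Of 21 genes of the IGF axis and imprinted genes, 17 reached the minimum, 6 were higher in passaged and 2 lower, with a median log2 ratio of 0.66. The binding proteins IGFBP3, IGFBP5, IGFBP6 and IGFBP7 were 3.35-fold (2.56 to 4.43), 5.07-fold (3.64 to 7.202), 7.67-fold (4.68 to 13.3) and 8.08-fold (4.79 to 14.6) higher. DLK1 and MEG3, neighbours in an imprinted domain, were 6.87-fold (6.15 to 7.68) and 12.04-fold (5.87 to 28.7) lower.

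Of the 13 protein-coding genes of the mitochondrial genome, 13 reached the minimum, 0 were higher in passaged and 10 lower, with a median log2 ratio of -1.48. MT-CO2 had 5695 FPKM on day 2 and, on day 3, 1292 in passaged, 5871 in NP-IWP2 and 7023 in NP-ctrl, 4.54-fold (4.46 to 4.64) lower in passaged, and MT-ATP8, the least changed, was 1.25-fold (1.14 to 1.36) lower. The nuclear genes of the same respiratory complexes did not follow. Of 46 such genes, 46 reached the minimum, 0 were higher in passaged and 0 lower, with a median log2 ratio of 0.09. COX5A and NDUFC2 lay at the ends of the list, with 1.597-fold (1.46 to 1.75) lower and 1.899-fold (1.61 to 2.24) higher. Of 41 cytosolic ribosomal proteins, 41 reached the minimum, with a median log2 ratio of -0.30. In passaged 0 were higher and 3 lower, beside 6.42% and 8.85% of all genes. RPS27 was 2.62-fold (2.47 to 2.77) lower and RPS20 at 108 FPKM in passaged and 96.6 in NP-IWP2.

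Markers of cell types were summed as FPKM over the lists of the design, and for a bulk sample fewer cells of a type and less RNA per cell cannot be told apart. Primitive streak markers (TBXT, MIXL1 and EOMES) summed to 422 on day 2, then on day 3 to 7.76 in passaged, 108 in NP-IWP2 and 40.6 in NP-ctrl. Cardiac mesoderm markers (MESP1, HAND1, PDGFRA and GATA4) came to 186 on day 2, 201 in passaged, 664 in NP-IWP2 and 845 in NP-ctrl, and 3 of the 4 were called lower in passaged. Pluripotent markers stood at 282, 85.1, 106 and 108 in the same order, with POU5F1 at 48.03 FPKM in passaged and 75.97 in NP-IWP2 and NANOG at 0.19 FPKM in passaged and 1.04 in NP-IWP2. The labels give embryonic stem cells as the cell type, and the defining markers of that state were below day 2 in both libraries except SOX2, which lies inside another transcript, at 8.47 FPKM on day 2 and, on day 3, 12.1 in passaged, 10.2 in NP-IWP2 and 4.53 in NP-ctrl.

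Markers of endothelium, blood, fibroblasts and ectoderm were near the floor. Endothelial and blood markers (ETV2, PECAM1, CDH5 and TAL1) summed to 1.19 in NP-IWP2 and 1.03 in passaged, fibroblast markers (LUM, DCN and POSTN) to 0.04 and 0.65, and ectoderm markers (PAX6, SOX1 and TFAP2A) to 0.20 and 1.84. TFAP2A, a factor of surface ectoderm and neural crest, was the member called, 7.35-fold (4.696 to 12.1) higher on 22 counts in NP-IWP2 and 164 in passaged, and SOX1 had 0 and 24 counts, under the minimum. Endoderm markers (SOX17, FOXA2, HHEX and APOA2) summed to 32.0 and 18.4. Of 21 endoderm genes, 15 reached the minimum, 4 were higher in passaged and 4 lower, with a median log2 ratio of -0.04. With at least 10 or at least 100 counts this median was -0.68, so it depended on which low genes entered. HHEX was 6.28-fold (4.28 to 9.498) lower, SOX17 was at 10.4 FPKM in passaged and 20.5 in NP-IWP2, and the transcriptional repressor PRDM1 was 5.56-fold (4.55 to 6.84) higher. Of 20 endothelial and blood precursor genes, 7 reached the minimum, 2 were higher in passaged and 3 lower, with a median log2 ratio of -0.31. With at least 100 counts the median was -1.12. GATA2 was 2.48-fold (1.897 to 3.26) lower and TEK 6.58-fold (3.802 to 12.2) higher. HBE1, whose counts may include reads of its neighbours in the globin cluster, had 4 counts in NP-IWP2 and 79 in passaged. Of 19 ectoderm genes, 13 reached the minimum, 4 were higher in passaged and 4 lower, with a median log2 ratio of -0.02. OTX2 was 3.91-fold (3.43 to 4.48) lower and SOX3 3.68-fold (2.86 to 4.78) higher. KRT8 and KRT18, keratins of simple epithelia that stand in this list for surface ectoderm, were 3.23-fold (3.16 to 3.3) and 4.21-fold (4.05 to 4.38) higher, with 77.6 FPKM on day 2 and, on day 3, 322 in passaged, 76.4 in NP-IWP2 and 144 in NP-ctrl for KRT18. Of 15 pluripotency genes, 15 reached the minimum, 1 was higher in passaged and 5 lower, with a median log2 ratio of -0.74. With at least 100 counts the median was -0.21. LIN28A, an RNA-binding protein of stem and progenitor cells, was the gene called higher, with 321 FPKM on day 2 and, on day 3, 382 in passaged, 174 in NP-IWP2 and 194 in NP-ctrl and 2.201-fold (2.15 to 2.26).

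The 12 protein-coding genes with the lowest ratio among those with at least 100 counts were CYP26A1, GYPE, CER1, FADS6, TMOD1, APOBEC3G, TBR1, DSCAML1, LGALS12, GYPB, MIXL1 and HAND2. TMOD1, which caps actin filaments in erythrocytes and muscle, was 48.8-fold (24.5 to 114) lower (0.16 FPKM in passaged and 7.76 in NP-IWP2). GYPB, an erythrocyte glycophorin, was 29.4-fold (14.7 to 68.9) lower, and its near-identical neighbour GYPE had 204 and 2 counts (103-fold with an interval of 28.3 to 859.6), so these are uncertain as separate genes, as is APOBEC3G among its paralogs (68.4-fold with an interval of 18.6 to 571). FADS6 and TBR1 came to 55.4-fold with an interval of 18.6 to 272 and 58.8-fold with an interval of 15.9 to 491 on 3 and 2 counts in passaged. DSCAML1 and LGALS12 were 37.5-fold (19.5 to 82.8) and 32.6-fold (13.7 to 102) lower.

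Among the 12 with the highest ratio were COL5A3, HLA-DQA2, DKK1, KCNMA1, SLC8A3, RAMP1, CDH6, GREM1, GDPD2, NXPH2 and VAT1L. KCNMA1, a calcium-activated potassium channel, had 1 and 112 counts (111-fold with an interval of 19.4 to 4402), and SLC8A3, a sodium-calcium exchanger, was 26.9-fold (14.4 to 56.8) higher. RAMP1, which modifies the calcitonin receptor-like receptor, was 25.4-fold (9.63 to 94.98) higher, GDPD2 21.5-fold (9.63 to 59.8), NXPH2 18.6-fold (13.5 to 26.3) and VAT1L 18.5-fold (12.6 to 28.3). HLA-DQA2, at 5 counts in NP-IWP2 and 368 in passaged, has a near-identical copy and is uncertain.

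The pair had little trend over exonic length, which both comparisons with NP-ctrl had. Genes were divided into 10 bins of 1507 by exonic length. From the shortest bin, with a median length of 1217 bases, to the longest, with 14291, the median log2 ratio went from -0.09 to -0.01 for passaged to NP-IWP2, from -0.20 to 0.34 for passaged to NP-ctrl and from -0.14 to 0.35 for NP-IWP2 to NP-ctrl. Spearman's rho across genes was 0.028, 0.212 and 0.308, given as a description, since genes of 1 library share its preparation. With GC content rho was 0.080, 0.100 and 0.033. Levels set against NP-ctrl above therefore carry a trend with length that the pair does not, and its part in them was not tested.

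**Figure D4:**
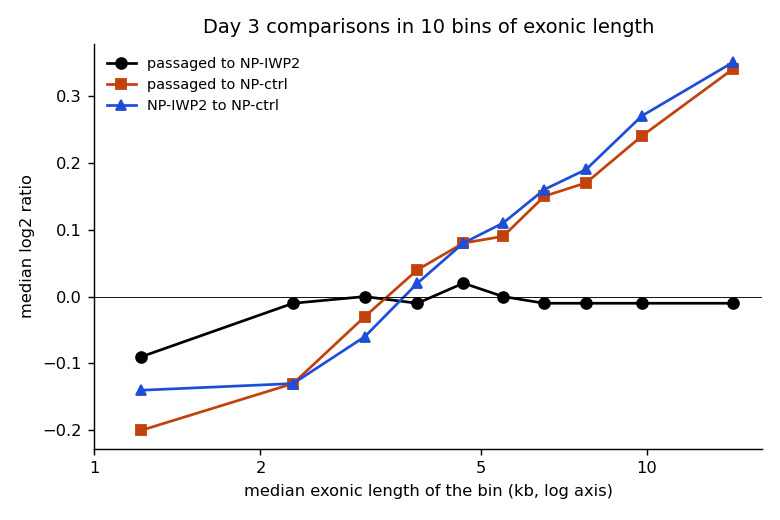
Median log2 ratio in 10 bins of 1507 genes by exonic length (median of the bin in kb, log axis) for the 3 comparisons of day 3. The line of passaged to NP-IWP2 stays between -0.09 and 0.02, while both comparisons with NP-ctrl climb from below 0 to 0.34 and 0.35.

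On later days the same arms were compared for the genes called on day 3, in libraries that had no part in choosing them. Of the 968 genes higher on day 3, 211 were at least 2-fold higher on day 5 (21.8%, beside 4.54% of the 15070 genes) and 87 lower (8.99%, beside 6.25%). By day 7 there were 132 higher (13.6%, beside 2.99%) and 128 lower (13.2%, beside 5.99%). Day 10 had 82 higher (8.47%, beside 3.38%) and 220 lower (22.7%, beside 11.0%). Lower genes also outnumbered higher ones among all 15070 genes on that day, with 1651 lower and 510 higher. Of the 1333 genes lower on day 3, 269 remained lower on day 5 (20.2%), 218 on day 7 (16.4%) and 270 on day 10 (20.3%), and 59, 48 and 59 were higher. Of these 1333 genes, 401, 450 and 436 were under 30 counts in both libraries of days 5, 7 and 10 and could not be called, against 966, 1187 and 1255 of the 15070. Among the 968 higher genes 143, 183 and 202 were under it. All 3 days come from 1 series of cultures, with 1 library each.

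Among the lists, the S phase median went from 0.98 on day 3 to 0.30, -0.19 and -0.72 on days 5, 7 and 10, and that of cholesterol and fatty acid synthesis from 0.72 to 0.84, 0.52 and -0.01. The mitochondrial genome went from -1.48 to 0.16, 0.35 and 0.87, so its low level in passaged was seen on day 3 and not on days 5, 7 or 10. Cardiac mesoderm and progenitors had -0.71, -0.83, -0.27 and 0.16, and presomitic mesoderm -1.32, -0.69, -0.41 and -1.02. FOXC2 kept its direction, with log2 ratios of 1.56, 4.38, 3.89 and 0.99, as did COL2A1 with 4.10, 2.99, 2.25 and 1.29, TNNC1 with 3.39, 1.95, 1.73 and 2.19, and NKX2-6 with 4.197, 1.13, 1.47 and 1.35. HAND2 was level after day 3, at -4.57, -0.15, -0.27 and -0.53. DKK1 went from 5.36 through 3.79 and 0.23 to -3.87.

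**Figure D5:**
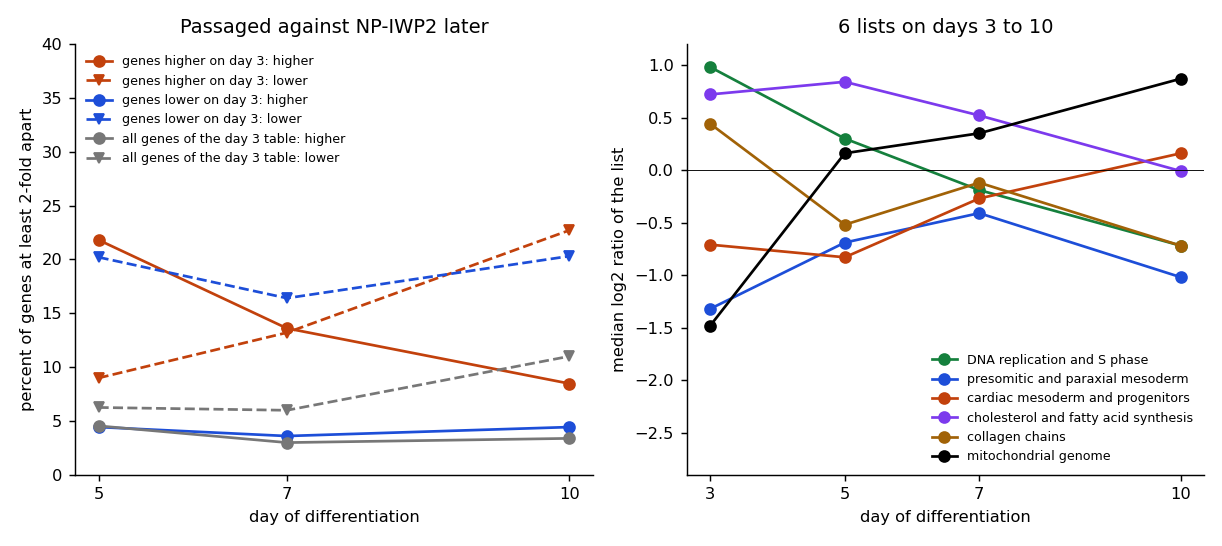
Left, the percent of genes at least 2-fold higher (circles, solid) or lower (triangles, dashed) in passaged than in NP-IWP2 on days 5, 7 and 10, for the 968 genes higher on day 3, the 1333 lower and all 15070. Right, the median log2 ratio of 6 lists on days 3, 5, 7 and 10, where the S phase list goes from 0.98 to -0.72 and the mitochondrial genome from -1.48 to 0.87.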

How the data were processed

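Bulk RNA was sequenced in 15 libraries, of which the passaged and NP-IWP2 libraries of day 3 were compared, with day 2 and NP-ctrl set beside them. According to the submitters' processing notes the authors used cutadapt 1.9.1, HISAT2 2.0.1, HTSeq 0.6.1 and hg38, and a long-read library kit is named beside these short-read tools, a mismatch that was not resolved. The annotation release and strand setting are not given in the sources used here, so overlapping and near-identical genes are uncertain. The deposited counts are whole reads per gene and were used as deposited. The deposited FPKM are the same counts divided by exonic length and library total, within 0.005 when recomputed. Exonic length is a deposited column. Of the genes, 60463 matched GENCODE release 44 by identifier and 93.8% of these had identical coordinates on GRCh38; 20014 without a symbol were named by identifier.

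The log2 ratio of counts over library totals was computed for genes with at least 30 counts in either library, with counts at or under 3 raised to 3, and exact 95% Clopper-Pearson intervals from the counts. For counts of 1 to 3 the ratio of the unraised counts is printed. Intervals cover counting error only. The study's own method, DESeq2, needs replicates, so no test was made. Genes named were the 12 highest and 12 lowest protein-coding ratios with at least 100 counts, up to 4 members at each end of a list, members needed for their role, PORCN, and day 3 genes the study names. Some genes that met this rule are not reported here. Members and lists were chosen with earlier results of these data known. List medians for later days include members that were under the minimum on those days. The interval calculation was tested on simulated data. Alternatives were the size factors of DESeq2 1.42.0 and TMM of edgeR 4.0.16 (R 4.3.3), other totals, minimums, scales and folds; 2 more, on GC content and on the mean count, and the E2F motif were added after the data were seen. Python 3.11.15, pandas 2.3.3, scipy 1.17.1 and matplotlib 3.10.9 were used.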

Additional observations from a re-analysis of the deposited data

Results flagged for a closer look

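For 11 of the genes in the lists or among the named genes, the difference between passaged and NP-IWP2 on day 3 was opposite in direction to that on each of days 5, 7 and 10, at 2-fold or more throughout. With 1 library per arm and day, the difference between days was not tested.

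All values are log2 ratios of passaged to NP-IWP2. Higher in passaged on day 3 and lower later were the following. SFRP5 was at 2.07 on day 3 and -2.41, -5.29 and -5.83 on days 5, 7 and 10. APOA1 was at 3.48 on day 3 and -6.26, -3.40 and -4.18 on days 5, 7 and 10. APOB was at 2.82 on day 3 and -2.94, -3.56 and -5.05 on days 5, 7 and 10. COL3A1 was at 4.15 on day 3 and -2.30, -1.70 and -3.36 on days 5, 7 and 10. COL14A1 was at 1.33 on day 3 and -2.11, -4.67 and -5.45 on days 5, 7 and 10. ITGA1 was at 2.09 on day 3 and -1.13, -2.10 and -4.22 on days 5, 7 and 10. ITGA8 was at 1.97 on day 3 and -2.34, -5.52 and -3.92 on days 5, 7 and 10. IGFBP3 was at 1.74 on day 3 and -2.06, -2.60 and -2.74 on days 5, 7 and 10. IGF2 was at 1.00 on day 3 and -3.86, -2.33 and -4.26 on days 5, 7 and 10. Lower in passaged on day 3 and higher later were the others. NPPB was at -4.52 on day 3 and 3.19, 1.39 and 5.13 on days 5, 7 and 10. CDKN1A was at -1.04 on day 3 and 1.01, 2.57 and 1.22 on days 5, 7 and 10. NPPB on day 3 rests on 2 counts in passaged and APOA1 on 3 in NP-IWP2, raised to or at the floor, so these values depend on it. Low levels on day 3 also limit others. On the log2(FPKM + 1) scale APOB, COL14A1, ITGA1, IGF2 and CDKN1A had 0.28, 0.41, 0.56, 0.80 and -0.78 on day 3, under the 2-fold limit. The other flagged genes stayed beyond it. IGF2 and CDKN1A lay close to the 2-fold limit on day 3. With the mitochondrial genes out of the totals IGF2 was at 0.95, and with TPM CDKN1A was at -0.87.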

How the results depend on the processing

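The count of 2301 genes called 2-fold moved by more than 1.5 times with the threshold, the minimum or the scale: it was 4911 at 1.5-fold, 636 at 4-fold, 4134 with at least 10 counts, 1299 with at least 100, 5300 with no minimum beyond the floor, 974 on the log2(FPKM + 1) scale and 1206 where the interval also had to lie beyond 2-fold. Each follows from the construction of the alternative (a different limit, more or fewer genes, or low genes drawn toward 0). It was 2288 with DESeq2 size factors, 2277 with TMM, 2325 without the mitochondrial genome, 2333 with TPM, 2288 with the trend over length removed and 2290 with that over GC content removed, a choice added after seeing the data. TPM turned the split from 42.1% to 55.0% higher in passaged, since it moved the median of all genes by 0.16. Under TPM 16 of 34 list medians moved beyond the counting error of their members, and those of WNT ligands, WNT secretion, endoderm, ectoderm, BMP, other matrix and FOXO changed sign from values near 0. The count minimum moved the medians of WNT ligands (-0.09 to -0.67 with at least 100 counts), endoderm (-0.04 to between -0.68 and -0.72), endothelial and blood precursors (-0.31 to -1.12) and pluripotency (-0.74 to -0.21), because members entered or dropped out. No list median of at least 0.5 in size changed direction under the alternatives run. Nor did any of the 244 called genes of the lists or named by rule under the 7 alternatives of scaling, scale, length and GC content, of which the last was added after seeing the data. For these genes that follows from the choice at 2-fold or more, since the alternatives moved the median of all genes by at most 0.16. It is therefore no check of their directions. Of the 244, 2 fell under 2-fold with DESeq2 size factors and 6 with TMM, among them COL6A1, SMAD3 and TBX3. Without the mitochondrial genome 9 did, among them RARB and MCM6, and with TPM 13. With the length trend removed 2 fell under it, and with that over GC content removed 6. On the log2(FPKM + 1) scale 54 did, where TBR1 had -0.91 and KCNMA1 0.28. With 1 library per group no replicate could be left out. No paired analysis was possible because each arm had 1 library on day 3. Depth limits low genes: 3 counts corresponded to 0.222 FPKM in NP-IWP2 and 0.219 in passaged at a length of 1 kilobase.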
